A study of Mus musculus with 2 samples.

Results

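The Reg family of mouse, the secreted lectins named for regenerating islets, was described in pancreatic islets of diabetic and control mice. Its members were taken by gene symbol as Reg1, Reg2, Reg3a, Reg3b, Reg3d, Reg3g and Reg4, which are 7 of the 44713 genes listed in the table of counts. The data were RNA sequencing of 2 libraries, 1 from each group, although the study's design text speaks of triplicates. The db/db library was made from C57BL/6 mice labelled Lepr-/-, which lack a working leptin receptor and are a common model of obesity and type 2 diabetes. The db/m library was made from C57BL/6 mice labelled wild type, although the name db/m usually stands for carriers of a single db allele. Islets of both groups had been released with collagenase, purified on a density gradient and extracted at once, and the total RNA had been depleted of ribosomal RNA. The comparison asked how islet transcripts differ between diabetic and control mice. Age, sex and the number of animals per library are not given in the labels.

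Reg genes encode small secreted proteins with a single C-type lectin fold and a signal peptide. In the pancreas they are made mainly by acinar cells, and several are known to increase sharply when the tissue is injured or inflamed. Some members are also found in islets under stress, and others act in the gut as antimicrobial proteins. Their genes respond to cytokines that act through the transcription factor STAT3, among them interleukin 6 and interleukin 22, and the glycosyltransferase-like membrane protein EXTL3 has been proposed as a receptor for Reg proteins.

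The db/db library held 18233695 counts and the db/m library 16271129 counts. Levels are given as CPM, counts per 1000000 counts of a library whose size was scaled with trimmed mean of M values (TMM) factors, and 1 count stood for 0.0516 CPM in db/db islets and 0.0653 CPM in db/m islets. Without replicates no difference could be checked against replicate error, and no p-value is given. Each ratio of db/db over db/m carries an exact 95% counting interval, which covers counting error only. PCR copies are not independent molecules, so even counting error can be larger than the interval shows. A gene was called higher or lower at a ratio of at least 2-fold with a mean of at least 1 CPM, taken before that scaling, and an interval excluding 1. Lepr, the gene named in the genotype label, had 3 counts in db/db islets and 4 in db/m islets. Counts per gene do not show which allele was present, so the label was not checked. The 16 acinar cell markers held 481769 CPM in db/db islets and 557768 CPM in db/m islets. As a share of all counts, before that scaling, they made up 51.2% in db/db islets and 52.5% in db/m islets. Exocrine transcripts were thus a large part of these libraries, whose source is labelled islet cells.

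The 7 Reg genes together had 64457 counts in db/db islets and 181080 in db/m islets. They made up 0.354% of all counts in db/db islets and 1.11% in db/m islets, with exact binomial intervals of 0.351% to 0.356% in db/db and 1.11% to 1.12% in db/m. The family sum was 3.55-fold lower in db/db islets (3.52 to 3.59). Of the 7 members, 6 passed the filter on low counts and all 6 were called lower, where 4.04% of the 10300 genes compared were called lower and 3.83% higher. Their median log2 ratio was -2.13, beside 0.02 over all genes compared. In bulk tissue RNA, fewer cells of a type and less RNA per cell cannot be told apart.

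Reg1, also known as pancreatic stone protein, is a major secreted product of acinar cells and was the member with the most counts. It had 2916 CPM (56497 counts) in db/db islets and 7517 CPM (115103 counts) in db/m islets. Reg1 was 2.58-fold lower in db/db islets (2.55 to 2.60), and it ranked 26 among all genes by count in db/db islets and 22 in db/m islets. It stayed among the most abundant transcripts of both libraries.

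Reg2 is the close paralog of Reg1 that mice carry in addition, and it is known from mouse islets as well as acinar cells. It had 215 CPM (4169 counts) in db/db islets and 3363 CPM (51493 counts) in db/m islets. Reg2 was 15.6-fold lower in db/db islets (15.1 to 16.1). By count it ranked 103 in db/db islets and 27 in db/m islets. Reg1 and Reg2 were thus close in rank in db/m islets and far apart in db/db islets.

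**Figure D1:**
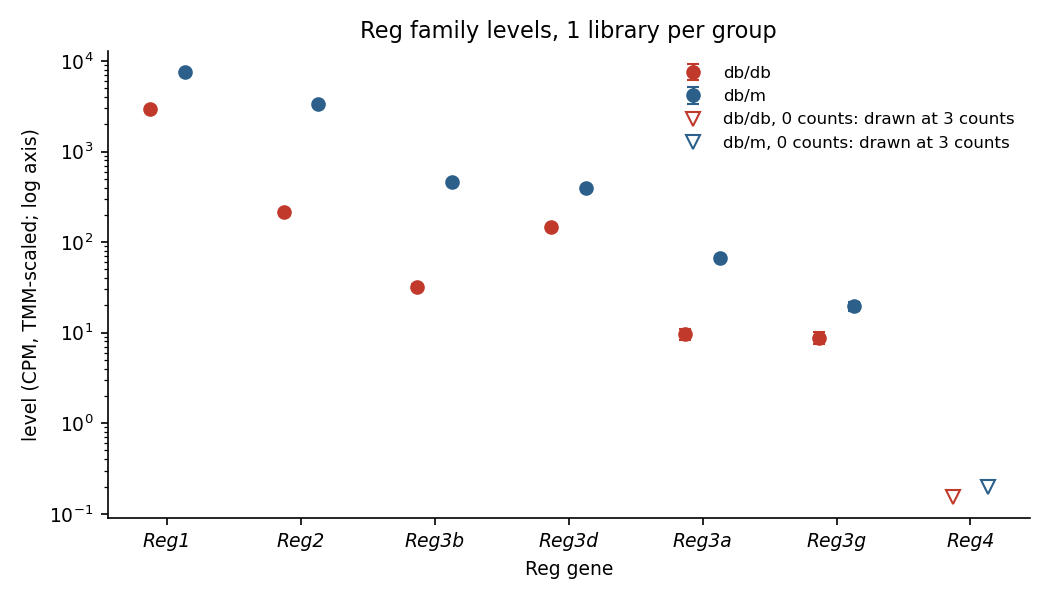
Level of each Reg gene in CPM on a log axis, with db/db left of db/m, 1 library per group and bars for the exact 95% Poisson interval of the count where it is wider than the point. All 6 detected members sit lower in db/db, with Reg2 at 215 CPM in db/db and 3363 CPM in db/m, and Reg4, without a count, is drawn at the level of 3 counts.

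The Reg3 genes encode the members best known for induction by inflammation. Reg3b, named pancreatitis-associated protein for its rise in the inflamed pancreas, had 31.9 CPM (619 counts) in db/db islets and 459 CPM (7036 counts) in db/m islets. It was 14.4-fold lower in db/db islets (13.2 to 15.6). In db/m islets it was the third member by count, and in db/db islets it lay below Reg3d.

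Reg3d, listed in RefSeq also as INGAP, the islet neogenesis-associated protein, had 145 CPM (2818 counts) in db/db islets and 400 CPM (6128 counts) in db/m islets. It was 2.75-fold lower (2.63 to 2.88), a ratio close to that of Reg1. Reg3a had 9.55 CPM (185 counts) in db/db islets and 66.5 CPM (1018 counts) in db/m islets. It was 6.96-fold lower (5.95 to 8.19) and lay between the deepest and the mildest members.

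Reg3g, which in the mouse gut binds bacterial peptidoglycan and kills Gram-positive bacteria, had the fewest counts of the detected members. It had 8.72 CPM (169 counts) in db/db islets and 19.7 CPM (302 counts) in db/m islets. Reg3g was 2.26-fold lower (1.87 to 2.75), and its interval reached below the 2-fold limit. With the acinar marker counts as library size it was 1.95-fold lower and not called. The 4 Reg3 genes together had 196 CPM in db/db islets and 946 CPM in db/m islets, 4.83-fold lower in db/db (4.66 to 5.01).

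Reg4, a member made by endocrine and goblet cells of the gut, had 0 counts in both libraries. A count of 0 allows a level of up to 3 counts, which is 0.155 CPM in db/db islets and 0.196 CPM in db/m islets, so no comparison was made for it. Of 13 markers of intestinal epithelium, 9 had 0 counts in both libraries. Of the 4 others, Vil1, an actin-bundling protein of microvilli, was higher in db/db islets with 46 counts against 12 in db/m islets, and the other 3 had at most 4 counts in a library. The goblet cell gene Tff3 and the enterocyte gene Fabp1 were among those at 0.

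The makeup of the family differed between the libraries. Reg1 made up 87.7% of the family counts in db/db islets (87.4% to 87.9%) and 63.6% in db/m islets (63.3% to 63.8%). Reg2 made up 6.47% in db/db islets (6.28% to 6.66%) and 28.4% in db/m islets (28.2% to 28.6%). The db/db family was therefore mostly Reg1, while the db/m family was mostly Reg1 and Reg2. Reg3b held 0.960% of the family in db/db islets and 3.89% in db/m islets, whereas Reg3d held 4.37% in db/db islets and 3.38% in db/m islets. Reg3a held 0.287% in db/db islets and 0.562% in db/m islets. Reg3g held 0.262% in db/db islets and 0.167% in db/m islets. The shares of Reg1, Reg3d and Reg3g were larger in db/db islets and those of Reg2, Reg3a and Reg3b smaller. The shares of a library add up to the whole family, so they do not vary independently. Their intervals cover counting error only. Shares of counts between genes also reflect transcript length. Set per kb of gene span, which is 2582 to 3131 bases for these genes and includes introns, Reg1 held 88.5% in db/db islets and 65.4% in db/m islets and Reg2 held 5.96% in db/db islets and 26.7% in db/m islets.

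**Figure D2:**
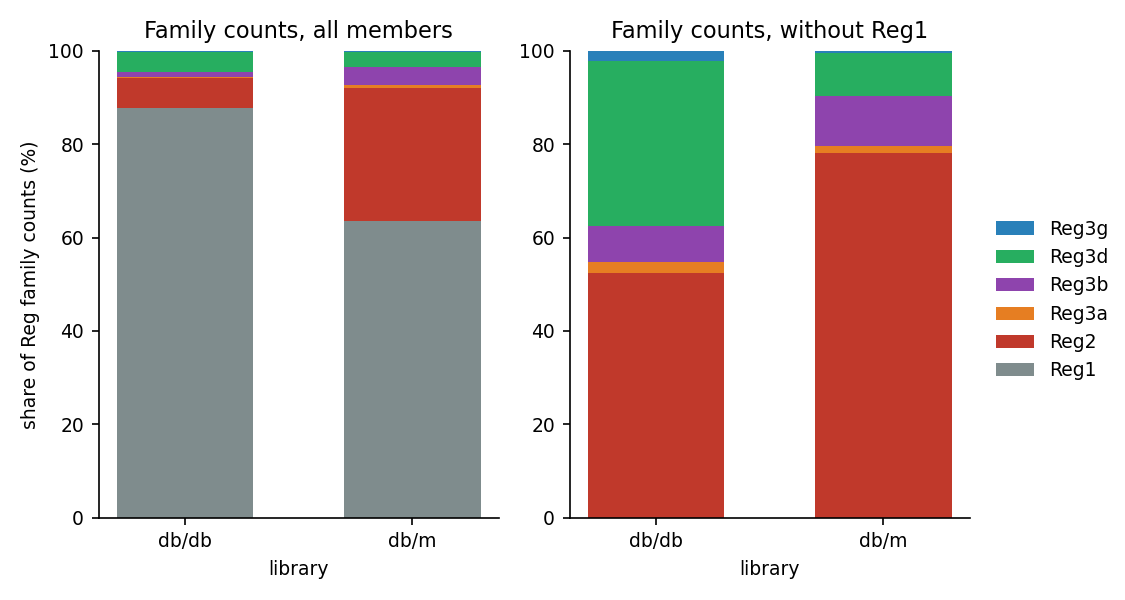
Share of the Reg family counts held by each member, in percent, in the db/db and the db/m library, for all members on the left and without Reg1 on the right. Reg1 takes 87.7% of the family in db/db and 63.6% in db/m, and without Reg1 the share of Reg2 is 52.4% in db/db and 78.0% in db/m.

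Without Reg1 the family had 7960 counts in db/db islets and 65977 in db/m islets, 10.5-fold lower in db/db (10.2 to 10.7). Within this remainder Reg3d held 35.4% in db/db islets and 9.29% in db/m islets, and Reg3b held 7.78% in db/db islets and 10.7% in db/m islets. Of the difference in family level between the libraries in CPM, Reg1 accounted for 54.1%, Reg2 for 37.0% and Reg3b for 5.03%. The largest part of the difference in amount was thus in Reg1, although its fold was among the smallest.

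Ratios between members within a library do not depend on how the libraries are scaled. Reg2 had 7.38 counts per 100 Reg1 counts in db/db islets and 44.7 in db/m islets. Reg3b had 21.97 counts per 100 Reg3d counts in db/db islets and 115 in db/m islets, so their order was turned round. Reg3b had 3.66 counts per Reg3g count in db/db islets and 23.3 in db/m islets. Over the 15 pairs of detected members, 95% intervals from the log odds ratio showed unequal ratios for 13. The pairs whose interval held 1 were Reg2 with Reg3b, at a ratio of ratios of 0.920 (0.843 to 1.005), and Reg1 with Reg3g, at 0.877 (0.726 to 1.06). Reg2 over Reg1 was 0.165 (0.160 to 0.171) and Reg3b over Reg3g was 0.157 (0.128 to 0.193). Reg3d and Reg3g differed little, at 0.822 (0.677 to 0.997). These intervals cover counting error between 2 libraries only. The pairs share members and are not independent, and pairs of other genes were not compared.

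Of the 7 genes, 6 lie in a cluster on chromosome 6 within 98 kb, from 78370885 to 78468874 in GRCm38.p6, and Reg4 lies apart on chromosome 3 from 98222138 to 98236748. Along the cluster the order is Reg3b, Reg3d, Reg3a, Reg2, Reg1 and Reg3g, with the pseudogene Gm52853 between Reg1 and Reg3g. Reg3b and Reg3d lie 2.41 kb apart, and they were 14.4-fold and 2.75-fold lower in db/db islets. Reg2 and Reg1 lie 17.9 kb apart, and they were 15.6-fold and 2.58-fold lower. In these pairs a member with a large fold thus lay next to one with a small fold, whereas Reg1 and Reg3g both had small folds.

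**Figure D3:**
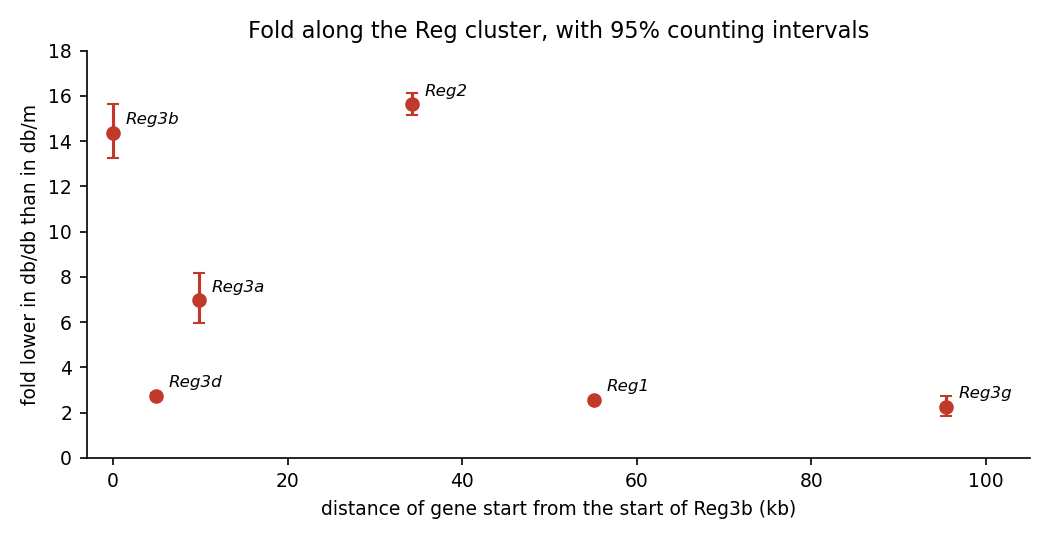
Fold by which each gene of the Reg cluster was lower in db/db than in db/m, on a linear axis, against the distance of its start from the start of Reg3b in kb, with bars for the 95% counting interval. Reg3b (14.4) and Reg2 (15.6) stand high, and Reg3d (2.75), Reg1 (2.58) and Reg3g (2.26) stand low.

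The promoters of the clustered genes were set beside these folds, because paralogs that arose by duplication can keep similar regulatory sequence. RefSeq promoters of GRCm38.p6 were matched for all 7 members. Over the 250 bases before the start, global alignment gave the highest identity, 68.4%, to Reg3b with Reg3g, followed by 53.5% for Reg1 with Reg2. The other 19 pairs lay between 40.3% and 51.1%, and the 6 pairs with Reg4 between 40.3% and 44.6%. Both of the most similar pairs joined a member with a fold above 14 to one with a fold below 3. The 4 promoters of these pairs are printed 5′ to 3′ on the strand of the gene, with capitals for TATAAA, the core of the TATA box (either strand), and for TTCNNNGAA, the core motif of STAT proteins.
Reg2 (chr6:78404905-78405154, plus strand): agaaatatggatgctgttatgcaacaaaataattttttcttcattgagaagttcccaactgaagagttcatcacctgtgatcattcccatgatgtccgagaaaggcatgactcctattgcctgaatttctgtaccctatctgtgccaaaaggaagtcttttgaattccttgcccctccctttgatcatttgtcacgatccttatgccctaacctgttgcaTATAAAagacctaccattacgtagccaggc
Reg1 (chr6:78425733-78425982, plus strand): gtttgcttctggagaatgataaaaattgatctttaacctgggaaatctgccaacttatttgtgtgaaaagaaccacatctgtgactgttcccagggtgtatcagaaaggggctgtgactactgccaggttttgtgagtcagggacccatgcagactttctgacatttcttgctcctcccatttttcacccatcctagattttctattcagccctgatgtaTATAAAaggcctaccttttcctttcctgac
Reg3b (chr6:78370635-78370884, plus strand): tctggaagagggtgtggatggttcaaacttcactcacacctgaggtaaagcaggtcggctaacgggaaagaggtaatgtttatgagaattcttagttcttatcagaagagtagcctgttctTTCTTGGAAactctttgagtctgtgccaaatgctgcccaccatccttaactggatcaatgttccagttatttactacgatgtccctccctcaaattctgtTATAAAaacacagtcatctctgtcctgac
Reg3g (chr6:78468875-78469124, minus strand): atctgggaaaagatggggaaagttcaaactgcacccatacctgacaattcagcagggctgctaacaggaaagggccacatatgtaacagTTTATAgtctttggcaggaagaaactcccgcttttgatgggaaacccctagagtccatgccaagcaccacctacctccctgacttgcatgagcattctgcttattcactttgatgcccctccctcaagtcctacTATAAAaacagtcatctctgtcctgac
In these promoters TATAAA on the gene strand began 30 bases before the start in Reg1 and Reg2, 29 in Reg3b and 27 in Reg3g. Of the 7 members, 4 held TATAAA on either strand within 300 bases, as did 13.6% of 32851 mouse promoters. TTCNNNGAA, which reads the same on both strands, was found in 2 members, 129 bases before the start of Reg3b and 238 before that of Reg3d, and in 8.30% of all promoters. The AP-1 motif TGANTCA was found in 1 member, 117 bases before the start of Reg1, and in 7.81% of all promoters. AGAACA, the hexamer of glucocorticoid receptor sites, searched on both strands, was found 135 bases before the start of Reg3b and 155 before that of Reg3a, and in 19.0% of all promoters. Reg2 and Reg3b, the members with the largest folds, shared TATAAA, which Reg1 and Reg3g also held. Such matches describe letters in a window.

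Among genes with a high mean level, the 4 Reg genes that reached it stood at the low end of the ratios. Of 287 genes that averaged 100 CPM or more, 21 were called lower (7.32%) and 4 of these were Reg2, Reg3b, Reg3d and Reg1. Only 2 other genes of the 287 had a ratio as low as that of Reg2, the chaperone gene Hspa1b and the AP-1 gene Jun. Over all 10300 genes compared, 22 others had a ratio at or below that of Reg2. By closeness of the log2 ratio to that of Reg2 (-3.97), over 2 libraries and among these abundant genes, the nearest was the chaperone gene Hsph1 with 18.7 CPM in db/db islets and 288 CPM in db/m islets, a difference of 0.02. Jun came next with 15.6 CPM in db/db islets and 256 CPM in db/m islets, a difference of 0.07. Hsp90aa1, a cytosolic chaperone, Hspa1b and the mitochondrially encoded CYTB followed at differences of 1.10, 1.19 and 2.30. Hspa1b has a near-identical neighbour, Hspa1a, so its count is uncertain. Likeness here means a similar ratio between 2 libraries. The cut of 100 CPM was on the mean of both libraries. Hspa1b, Jun, Hsph1, Hsp90aa1 and Reg3b passed it only through db/m islets, with less than 100 CPM in db/db islets. Genes with a similar ratio and a lower mean could not enter, so these ranks are description only.

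**Figure D4:**
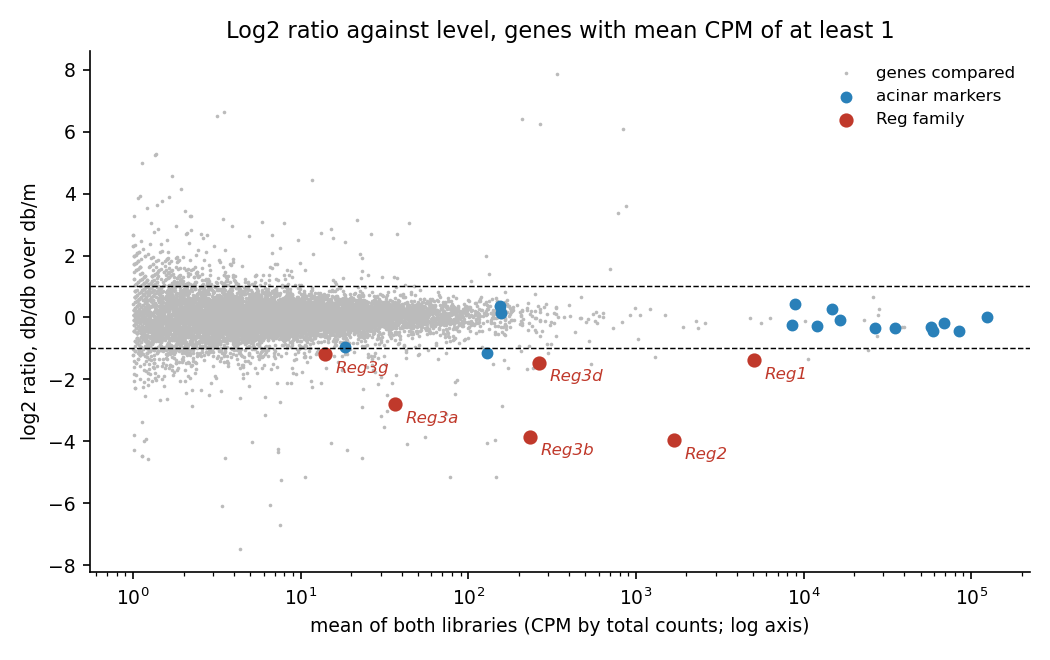
Log2 ratio of db/db over db/m for the 10300 genes compared (grey), against the mean level of both libraries in CPM on a log axis, with the Reg family in red, 16 acinar markers in blue and dashed lines at 2-fold. Reg2 and Reg3b lie near -4 at levels where most genes lie close to 0, while the acinar markers lie between -1.15 and 0.44.

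Transcripts of the cytokines that induce Reg genes were scarce in both libraries. Of 28 cytokine, receptor and related genes, 14 passed the filter, of which 1 was called higher, 0 lower and 13 neither, and the median log2 ratio was -0.10. Il6, Il22, Il17a, Ifng and Osm had 0 counts in both libraries. The interleukin 22 receptor gene Il22ra1 had 148 CPM in db/db islets and 163 CPM in db/m islets, a ratio of 0.907 (0.859 to 0.957). Il6st, the signalling chain shared by the interleukin 6 family of receptors, had 44.2 CPM in db/db islets and 55.2 CPM in db/m islets, a ratio of 0.801 (0.727 to 0.881). Extl3 had 176 CPM in db/db islets and 185 CPM in db/m islets, a ratio of 0.954 (0.908 to 1.003). These 3 transcripts were within 2-fold between the libraries. Cckbr, the receptor of gastrin and cholecystokinin, was the higher gene, with 83 counts in db/db islets and 11 in db/m islets, 5.96-fold (3.17 to 12.4). Among all genes compared, 3.83% were called higher and 4.04% lower.

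Of 22 genes of JAK and STAT signalling, 19 passed the filter, of which 2 were called lower, 0 higher and 17 neither, and the median log2 ratio was -0.22. Socs3, a feedback inhibitor that STAT3 induces, was 3.90-fold lower with 37 counts in db/db islets and 114 in db/m islets (2.67 to 5.81). Pim1, a kinase that STAT proteins induce, was 2.74-fold lower with 37 counts in db/db islets and 80 in db/m islets (1.83 to 4.16). Stat3 itself had 28.2 CPM in db/db islets and 49.8 CPM in db/m islets, a ratio of 0.567 (0.507 to 0.633) that did not reach the 2-fold limit. The 17 genes called neither included Cish (ratio 1.42) and Bcl6 (1.84), and over all genes compared 4.04% were called lower and 3.83% higher.

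Of 27 acute phase genes and targets of STAT3, 8 passed the filter and 12 had 0 counts in both libraries, among them Saa3 and Hp. Of the 8, 1 was higher (Lrg1, a secreted glycoprotein, 2.06-fold, 1.63 to 2.63) and 2 were lower, the transcription factor Cebpd (4.03-fold, 1.999 to 8.79) and the TWEAK receptor gene Tnfrsf12a (2.73-fold, 1.67 to 4.58), while 5 were neither, and the median log2 ratio was -0.38. Of 28 genes known from acinar injury and pancreatitis, 16 passed the filter, 3 were called lower, 1 higher and 12 neither, and the median log2 ratio was -0.28. Tff2, a secreted trefoil peptide, had 190 CPM in db/db islets and 421 CPM in db/m islets and was 2.21-fold lower (2.13 to 2.31). Hbegf, a growth factor, was 3.75-fold lower (2.37 to 6.09), the calcium-binding S100a11 2.17-fold lower (1.08 to 4.54), and the hyaluronan receptor gene Cd44 2.55-fold higher (1.69 to 3.95). Clu and Nupr1, stress genes of acinar cells, had ratios of 0.885 (0.861 to 0.910) and 0.907 (0.880 to 0.934). Both lay far from the ratios of Reg2 and Reg3b. Beside the counts of these 2 lists, 4.04% of all genes compared were called lower and 3.83% higher.

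**Figure D5:**
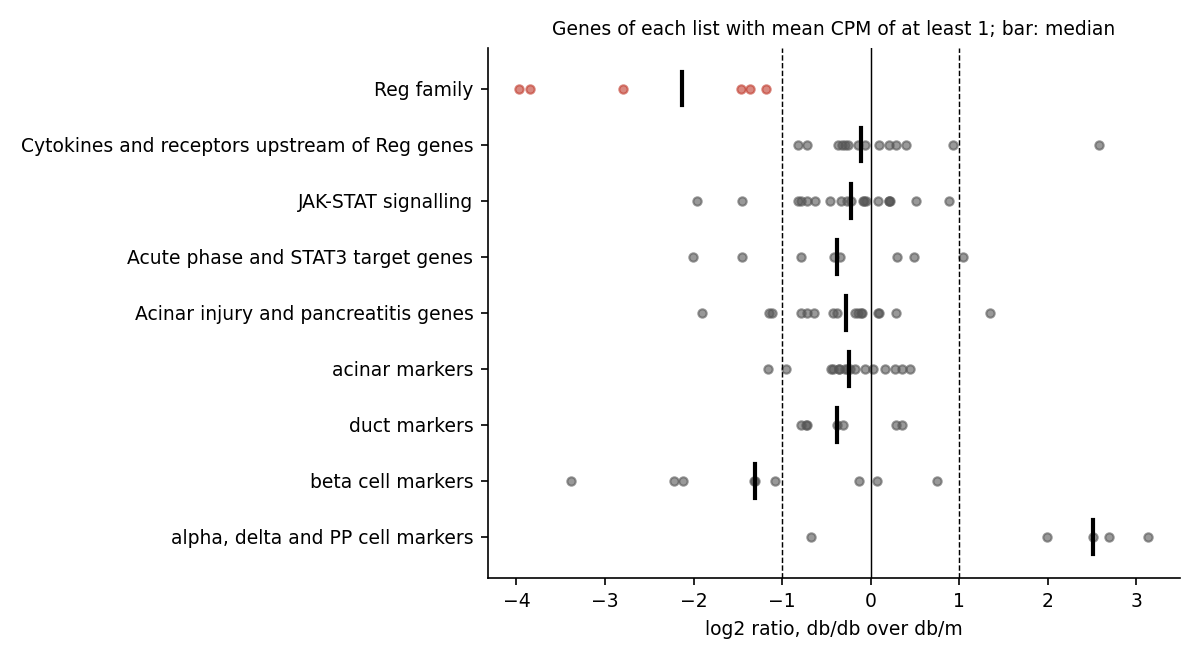
Log2 ratio of db/db over db/m for the genes of each list that averaged 1 CPM or more, 1 point per gene, with a bar at the median of the list and dashed lines at 2-fold. The Reg family has a median of -2.13, the acinar markers of -0.25, the beta cell markers of -1.31 and the alpha, delta and PP cell markers of 2.52.

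Set against the acinar cell products, the family was also lower in db/db islets. It had 6.91 counts per 1000 acinar marker counts in db/db islets and 21.2 in db/m islets. Among those 16 markers 0 were higher, 1 was lower (Amy2a5, an amylase) and 15 were neither, with a median log2 ratio of -0.25. How reads shared by amylase genes were counted is not given, so the Amy2a5 count is uncertain. The marker sum had a ratio of 0.864 (0.863 to 0.865) with TMM scaling. Its share of all counts differed less, at 51.2% in db/db islets and 52.5% in db/m islets. Outside this list, and named after their values were seen, the amylase gene Amy2b had 6172 CPM in db/db islets and 15665 CPM in db/m islets, 2.54-fold lower (2.52 to 2.56), and the pancreatic phospholipase gene Pla2g1b had 288 CPM in db/db islets and 821 CPM in db/m islets, 2.85-fold lower (2.77 to 2.95). These folds were near those of Reg1 and Reg3d, so some abundant acinar products other than Reg genes were lower too. Others were not. Of the 16 markers 11 had a ratio below 1, while Sycn (1.36), Bhlha15 (1.28) and Clps (1.21) were among those above 1. The 8 duct markers had 126 CPM in db/db islets and 187 CPM in db/m islets, with 0 of 7 compared called. The ratio of duct marker sums, 0.673 (0.638 to 0.711), lay on the same side as those of the Reg genes and nearer to 1. This sum was carried by Muc1, with 1392 counts in db/db islets and 1817 in db/m islets. Of the 7 compared, 5 had a ratio below 1, while Krt19 (1.22) and Krt7 (1.28) lay above 1 with intervals that held 1.

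Islet cell markers also differed. The 9 beta cell markers had 1551 CPM in db/db islets and 1551 CPM in db/m islets, a sum carried by Ins2, while 6 of the 9 were lower. The 7 markers of alpha, delta and PP cells had 294 CPM in db/db islets and 65.2 CPM in db/m islets, and 4 of the 5 compared were higher. Over all genes compared, 4.04% were called lower and 3.83% higher. The 7 leukocyte markers in the table had 149 counts in db/db islets and 86 in db/m islets. That sum was carried by Lyz2, called higher, with 95 counts in db/db islets and 33 in db/m islets. Ptprc, the other of the 2 leukocyte markers compared, had 25 counts in db/db islets and 27 in db/m islets and was not called. The 7 stellate cell and fibroblast markers had 162 counts in db/db islets and 88 in db/m islets, with 0 of 3 compared called. The 4 endothelial markers had 133 counts in db/db islets and 149 in db/m islets, with Kdr and Plvap called lower. Fos, an immediate early gene known to respond to tissue handling and named after its values were seen, was also called lower, with 145 counts in db/db islets and 1670 in db/m islets. It was 14.6-fold lower. Egr1 (16.9-fold) and Atf3 (23.5-fold), named in the same way, were lower too, as were Jun (16.4-fold) and Hspa1b (35.6-fold). The part of these cell types and of handling in the Reg ratios was not tested.

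Reads that match several Reg genes could have been split or dropped in counting, and the sources used here do not give how the authors treated them. Values of single members are uncertain to that extent. The family sum depends less on how reads were split, but reads dropped in counting would be missing from it too.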

How the data were processed

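Pancreatic islet RNA of 1 db/db and 1 db/m library was analysed, grouped by the genotype labels. The authors deposited whole-number counts per gene. Alignment used HISAT2 2.0.4 per the submitters' processing notes, which name the builds mm10 and GRCm38. The sources used here do not give the counting program, annotation, strand setting or handling of reads shared by paralogs. From the counts, CPM were computed with TMM factors (edgeR 4.0.16, R 4.3.3) on the whole table. Ratios have Clopper-Pearson 95% intervals (scipy 1.17.1, Python 3.11.15), and a count of 0 is read as up to 3 counts. Functions were checked on simulated data. No test was made with 1 library per group. Promoters were aligned globally with Biopython 1.88 (match 1, mismatch 0, gap opening 2, extension 0.5). The members, gene lists and calling rule were chosen with earlier results of these data known. Named genes were the members, up to 6 called genes per list, genes within 1 Mb of the cluster, the 5 genes closest to Reg2 in ratio, and genes a result turned on, whose values had been seen. The alternatives were other library scalings, filters, fold limits and intervals. Protein sequences were not used here.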

Additional observations from a re-analysis of the deposited data

How the results depend on the processing

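Each of the 4 other scalings multiplies every ratio by 1 factor, so the members moved together. The shifts were at most 0.21 in log2, too small to bring any member ratio to 1. All 24 resulting member ratios were therefore below 1, and 23 were at least 2-fold lower in db/db. Reg3g scaled to the acinar markers was the exception. Reg2 ranged from 13.5-fold to 15.7-fold lower and Reg1 from 2.23-fold to 2.59-fold lower. The ratio of the family sum (0.281) was 0.318 with total counts, 0.326 with acinar marker counts as library size and 0.304 with counts outside acinar markers, Reg genes and hormones. It was 0.0954 without Reg1 and 0.207 without Reg1 and Reg2, because these members make up most of the sum. The median log2 ratio of the members was -1.95 with total counts and -1.92 with acinar marker counts. These scalings moved the median of all genes by 0.18 and 0.21. Of 811 genes called, 48.7% were higher, against 67.1% with total counts, 71.0% with acinar marker counts and 60.5% with counts outside acinar markers, Reg genes and hormones. Genes called numbered 1559 without a filter, 131 at a mean of 10 CPM, 1803 at 1.5-fold, 154 at 4-fold, 351 with Bonferroni intervals and 236 with intervals beyond 2-fold. At 4-fold, 3 members were called lower (Reg2, Reg3a and Reg3b), and with intervals beyond 2-fold 5 were, without Reg3g. Shares per kb of transcript were not run, since no transcript lengths were at hand, and gene span was used after the data were seen. No paired analysis was possible because each group had 1 library.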

Other observations

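Set against insulin, the abundant beta cell transcript, Reg2 had 19.9 counts per 100 Ins2 counts in db/db islets and 327 in db/m islets. By count, Reg2 was thus below Ins2 in db/db islets and above it in db/m islets. RefSeq lists 10 other genes within 1 Mb of the Reg cluster on chromosome 6, of which 1, the catenin gene Ctnna2, is protein-coding, and the 7 found in the table had 0 counts in both libraries.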
